A study of Nasonia vitripennis with 51 samples.

Results

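The comparison described here sets bodies of the parasitoid wasp Nasonia vitripennis whose females had fed on 5-aza-dC for 48 h against bodies of females that had fed on it for 24 h. All body libraries of these 2 exposures were taken, which gave 18 of the study's 51 libraries, 9 of each exposure. The deposited table lists 4150376 CpGs, of which 1086293 (26.2%) had reads in all 18 libraries and were kept. The wasps were wild-type females of the AsymC strain, a line cured of Wolbachia. Females in the 48 h group drank sucrose solution with 10 µM 5-aza-dC for 48 h, those in the 24 h group drank the same solution for 24 h, and those in the sucrose group, which is used here only for orientation, drank sucrose alone for 24 h. In each group, females were harvested 0, 24 or 48 h after exposure ended, and 3 pools of 10 females were sequenced at each time. A body is the thorax and abdomen, so each value averages over many tissues and over the females of a pool, and a change in a few cells cannot be told apart from a smaller change in all of them. The labels do not say whether the pools came from separate cultures, so the p-values measure the spread between these pools. Females of the 48 h group were also 24 h further from the start of feeding at a given harvest time, so at matched harvest times a longer exposure and a later time cannot be told apart.

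DNA methylation in most insects studied is sparse and lies mainly within the bodies of actively transcribed genes, where CpGs tend to be methylated in nearly all copies or in none. A maintenance methyltransferase copies the marks to new DNA strands after replication. 5-aza-dC is a cytidine analogue that is built into DNA in dividing cells, where it traps methyltransferases, and in mammalian cells it is widely used to lower methylation. Nasonia carries both maintenance and de novo type methyltransferases, and an adult insect body consists in large part of cells that no longer divide.

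Methylation was read by whole-genome bisulphite sequencing, in which unmethylated cytosines are converted and read as thymine, so that the methylation level of a CpG is the share of its reads that kept a cytosine. The mean number of reads per shared CpG was 6.14 to 46.2 in the 48 h libraries and 15.3 to 64.8 in the 24 h libraries, or 6670669 to 50166145 and 16642595 to 70392156 reads in all. The shallowest was replicate 1 of the 48 h libraries harvested at 0 h. Positions are those of the deposited table, whose genome build is not given in the sources used here, so no gene is named. For replicate 1 of every body group and harvest time, sucrose bodies included, the title gives another harvest time than the sample characteristics, or none in the sucrose bodies harvested at 0 h. The characteristics were followed.

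Methylation of the strongly methylated CpGs was nearly the same after both exposures. The 1795 CpGs with a level of 0.8 or above, on average over the 18 libraries, had a mean methylation of 89.8% ± 0.625 after 48 h and 89.6% ± 0.884 after 24 h (SD, n = 9 each). The lowest, median and highest libraries were at 88.6%, 90.0% and 90.4% after 48 h, and at 88.2%, 89.7% and 90.7% after 24 h, so the groups overlapped almost entirely. Averaged over the harvest times, the 48 h libraries were 0.172 percentage points higher (two-sided exact permutation test within harvest times, adjusted p = 0.554 over 6 classes of level). The 868 CpGs with a level of 0.5 to 0.8 had 68.1% ± 1.34 after 48 h and 67.5% ± 1.38 after 24 h, a difference of 0.582 points (adjusted p = 0.355 in the same exact test). On single chromosomes the strongly methylated CpGs differed by 0.469 points on chromosome 1 (381 CpGs), 0.183 on chromosome 2 (293), 0.102 on chromosome 3 (312), 0.215 on chromosome 4 (145), 0.402 on chromosome 5 (117) and -0.0628 on scaffolds not placed on these chromosomes (547). None of these passed the exact permutation test (lowest unadjusted p = 0.179).

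CpGs of low and intermediate level had higher means after 48 h, but none of the classes passed the test after adjustment. The 2191 CpGs with a level of 0.2 to 0.5 had 27.6% ± 3.42 after 48 h and 24.6% ± 2.98 after 24 h, a difference of 2.99 points (adjusted p = 0.149, exact permutation test, n = 9 each). In this class the highest library was replicate 1 of the 48 h libraries harvested at 0 h, the shallowest of all, at 35.8%. Without it the difference was 1.86 points. The classes were set by the mean of these same 18 libraries, so read noise in a shallow library can lift CpGs into a class. With classes set by the sucrose bodies, that library was at 26.8% at 0.2 to 0.5. The difference there was 2.44 points (adjusted p = 0.112, exact permutation test), and at the 0 h harvest 0.283 instead of 5.47 points. The 18836 CpGs with a level of 0.1 to 0.2 had 14.5% ± 2.69 after 48 h and 11.8% ± 2.17 after 24 h, a difference of 2.69 points (adjusted p = 0.149, unadjusted p = 0.0428). Here the shallowest library was at 19.2%, and at 14.5% with classes set by the sucrose bodies. The difference was then 2.39 points (adjusted p = 0.112, exact permutation test). In the 578092 CpGs with a level of 0.02 to 0.1 the means were 4.35% ± 3.52 and 2.22% ± 1.41, with the 48 h libraries first, and in the 484511 CpGs with a level under 0.02 they were 2.13% ± 2.24 and 0.696% ± 0.710. Their differences were 2.14 and 1.43 points (adjusted p = 0.161 and 0.149 in the exact permutation test). These differences were smaller, and that at 0.2 to 0.5 of the other sign, without the 6 libraries that are replicate 1, in which title and characteristics disagree on the harvest time. They were then 0.517 points under 0.02, 0.483 at 0.02 to 0.1, 0.202 at 0.1 to 0.2 and -0.123 at 0.2 to 0.5.

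The libraries differed in how many reads kept a cytosine at CpGs that were otherwise unmethylated. Over the CpGs with a level under 0.02 in the sucrose bodies, this residual level was 0.326% to 8.79% in the 48 h libraries and 0.371% to 3.75% in the 24 h libraries. It was above 2% in 5 of the 48 h libraries, namely all 3 harvested at 48 h and replicates 1 and 3 harvested at 24 h, and in 1 of the 24 h libraries, replicate 2 harvested at 0 h. Leaving out replicate 2 of the 24 h libraries harvested at 0 h brought the 3 classes under 0.2 past the threshold, each with an adjusted p of 0.0315. Leaving out replicate 1 of the 48 h libraries harvested at 24 h reduced the difference under 0.02 to 0.821 points and that at 0.02 to 0.1 to 1.24 points. The 6 libraries above 2% include every 48 h library harvested at 48 h. They were therefore left out together with the 24 h libraries of that harvest, which leaves 9 libraries harvested at 0 and 24 h. Of the 48 h exposure only replicate 2 was then left at the 24 h harvest. In this subset the difference under 0.02 was -0.0586 points and that at 0.02 to 0.1 was -0.203 points. Those at 0.1 to 0.2 and 0.2 to 0.5 were 2.18 and 3.23 points. The residual level of each library was also removed, taken first over the CpGs under 0.02 in the 18 libraries. The differences were then 0.427 points under 0.02, 0.904 at 0.02 to 0.1, 1.48 at 0.1 to 0.2 and 1.92 at 0.2 to 0.5. Taken over the CpGs under 0.02 in sucrose bodies, an alternative added after the data were seen, its removal left 0.237, 0.607, 1.17 and 1.63 points in the same classes.

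**Figure D1:**
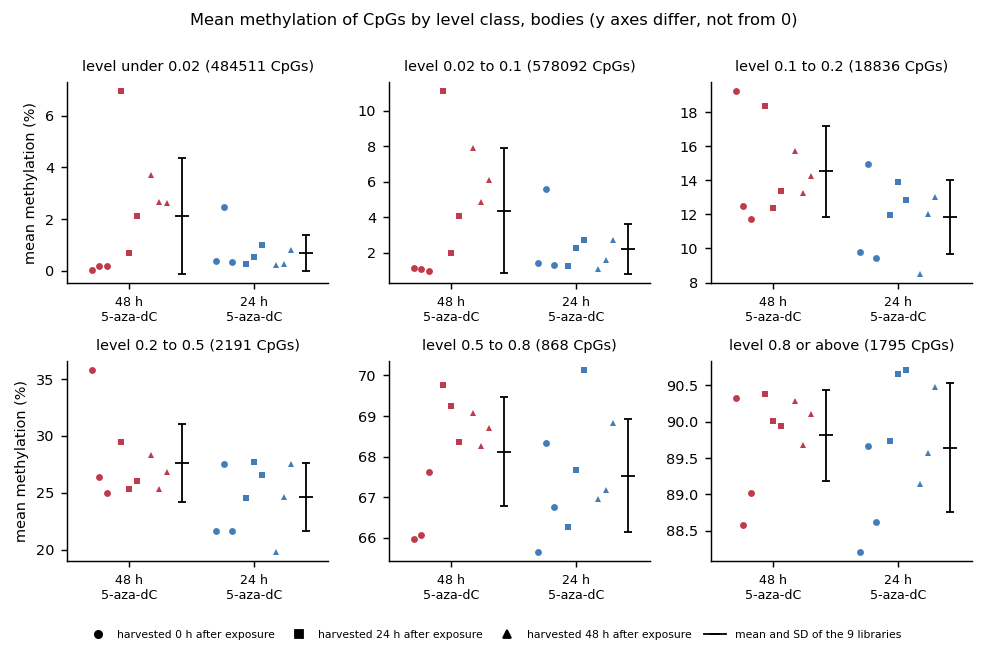
Mean methylation in percent (y axis, a separate range in each panel) of the CpGs of 6 classes of level in the 18 body libraries. Each point is a library, its shape gives the harvest time, and bars show mean and SD of the 9 libraries of each exposure; the classes of 0.5 and above overlap between exposures, while several 48 h libraries stand high in the classes under 0.1.

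Single CpGs did differ between the exposures, in both directions. Reads of the 23690 CpGs with a level of at least 0.1 were fitted with a quasi-binomial logistic model with harvest time as a block. With Benjamini-Hochberg adjustment over all of them, 126 passed an adjusted p of 0.05 (0.532% of those tested). Of these, 87 rose (0.367% of those tested) and 39 fell (0.165%) in the 48 h libraries. The 87 CpGs that rose did so by a median of 21.8 points (9.22 to 44.8), and the 39 that fell had a median difference of -25.1 points (-12.5 to -42.2), beside a median of 2.36 points over all CpGs tested. At 82 of the 87 and 36 of the 39 the sign was the same at all 3 harvest times, which held for 28.3% of all CpGs tested. The CpGs were chosen for a difference in these same libraries, so this agreement is largely set by the choice. The 9 libraries of one exposure did not overlap with those of the other at 6 of the 126, and at no other CpG tested (0.0253%).

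The CpGs past the threshold mostly had an intermediate mean over the 18 libraries. A wide gap between the exposures itself brings such a mean about, so the shares below are in part set by the choice. Between levels of 0.2 and 0.5, 53 of 2191 changed (2.42%), and between 0.5 and 0.8, 34 of 868 (3.92%). The filter of 0.1 was on the mean of both exposures, so CpGs near it could enter through the exposure where they were high. One of them, at 2565439 of scaffold GL341019, had means of 31.0% after 48 h and 0.278% after 24 h. At a level of 0.1 to 0.2, 35 of 18836 changed (0.186%), and at 0.8 or above, 4 of 1795 (0.223%). These 4 all rose, and lay on chromosome 3 at 13939477, chromosome 5 at 8006593 and chromosome 1 at 12602732 and 5251798; they are named for being few, after their values were seen. Each of chromosomes 1 to 5 held some, with 22 higher and 2 lower of 3793 tested on chromosome 1 (0.633%), 11 and 2 of 4000 on chromosome 2 (0.325%), and 14 and 11 of 3541 on chromosome 3 (0.706%). Chromosome 4 held 8 higher and 1 lower of 1870 (0.481%), and chromosome 5 held 9 and 1 of 1142 (0.876%). The other 45 were on scaffolds not placed on these chromosomes, 23 higher and 22 lower of 9344 tested (0.482%), beside 0.532% over all.

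The number of CpGs past the threshold depended on how the spread was estimated. limma on arcsine-square-root values called 18 CpGs, 11 higher and 7 lower, all 18 of them among the 126, and with values of at least 10 reads it called 46, 44 of them among the 126. With each CpG's dispersion estimated on its own, none passed (lowest adjusted p = 0.0583, 1922 at an unadjusted p under 0.05, against 2181 in the moderated fit). The 6 libraries with residual levels above 2% were left out together with the 24 h libraries harvested at 48 h. That leaves 9 of the 18 libraries, at 2 harvest times. In these 3 CpGs passed, at 41990 and 42012 of scaffold ChrUn_0265 and at 6645361 of chromosome 2. All 126 kept their sign in that subset, from which they are not independent, and 99 had an unadjusted p under 0.05 there. Centring each library on its overall level called 150, of which 65 were higher and 85 lower, and 104 were among the 126. The split between higher and lower CpGs therefore depends on the overall level of the libraries, and removing the residual level gave 55 higher and 44 lower. With the residual level taken over the CpGs under 0.02 in the 18 libraries themselves it gave 62 higher and 43 lower.

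**Figure D2:**
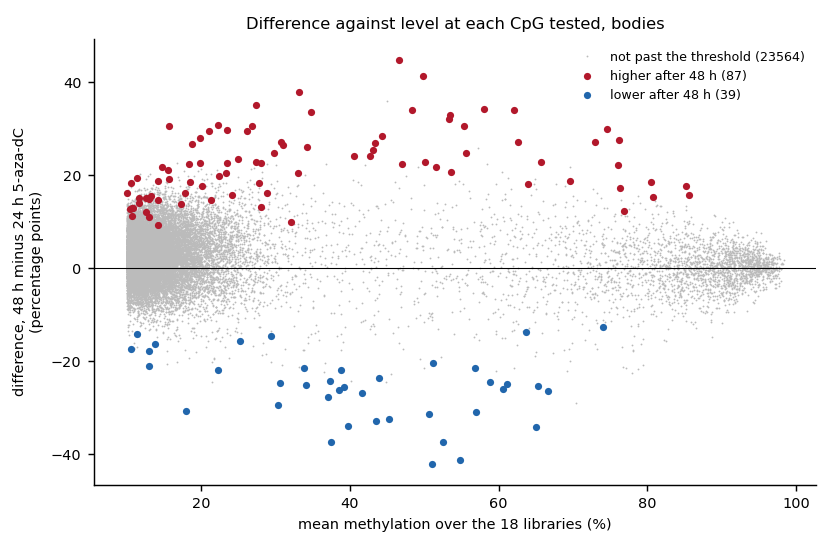
Difference in methylation, 48 h minus 24 h 5-aza-dC, in percentage points (y axis) against mean methylation over the 18 libraries in percent (x axis) for the 23690 CpGs tested. Red points mark the 87 CpGs higher after 48 h and blue points the 39 lower, most of them between the 2 extremes of level; the bulk of weakly methylated CpGs lies slightly above 0.

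The 5 CpGs with the largest rise, called H1 to H5 here, were intermediate in mean level over the 18 libraries, which a wide gap itself brings about. H1, on chromosome 1 at 9397768, had a lowest, median and highest level of 43.9%, 68.5% and 100% in the 48 h libraries, against 0%, 25.0% and 50.9% in the 24 h libraries. Its means were 69.0% ± 16.1 and 24.1% ± 15.5 (SD, n = 9 each), a difference of 44.8 points (log odds 1.40, SE 0.288, adjusted p = 0.00139, quasi-binomial model). The exposures overlapped, and the value of 100% was 4 of 4 reads in the shallowest library. The value of 0% was 0 of 6 reads in replicate 2 of the 24 h libraries harvested at 24 h.

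H2 and H5 lay on chromosome 2, at 28074284 and 28074495, at the ends of a group of 4 CpGs that all rose. H2 had levels of 47.7%, 68.9% and 94.1% (lowest, median, highest) in the 48 h libraries and 3.70%, 36.4% and 52.6% in the 24 h libraries, a difference of 41.4 points (adjusted p = 1.24e-07). H5 had 60.0%, 76.2% and 100% in the 48 h libraries and 8.00%, 44.0% and 77.3% in the 24 h libraries, a difference of 34.3 points (adjusted p = 0.00107). The value of 100% at H5 was 3 of 3 reads in the shallowest library. At both CpGs the gap was widest at the 48 h harvest, at 64.6 and 55.4 points, and the exposures overlapped. Among H1 to H5 and L1 to L5 below, only H5 did not pass in limma (adjusted p = 0.161), nor did most of the CpGs past the threshold.

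H3 lay on scaffold GL340968 at 1365498, in a group of 4 CpGs that rose by 14.8 to 37.9 points. Its levels were 24.0%, 50.0% and 77.8% in the 48 h libraries and 0%, 9.09% and 37.5% in the 24 h libraries (adjusted p = 9.28e-07). H4, on scaffold ChrUn_0265 at 41990, had 28.9%, 44.0% and 59.6% in the 48 h libraries and 0%, 8.33% and 25.0% in the 24 h libraries, with no overlap. It differed by 35.1 points (log odds 1.98, SE 0.305, adjusted p = 9.28e-07), and 6 CpGs within 41963 to 42021 of that scaffold rose together.

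The 5 CpGs with the largest fall, L1 to L5, included 3 that lay side by side on chromosome 3. L1 at 11868618 had levels of 0%, 35.0% and 50.0% in the 48 h libraries and 55.6%, 71.4% and 100% in the 24 h libraries, with no overlap, and fell by 42.2 points (log odds -1.85, SE 0.371, adjusted p = 0.000539). L2 at 11868630 had 0%, 33.3% and 60.0% in the 48 h libraries and 55.6%, 76.9% and 93.3% in the 24 h libraries, a difference of -41.3 points (adjusted p = 0.00127). L5 at 11868593 had 23.1%, 53.8% and 68.2% in the 48 h libraries and 58.8%, 81.2% and 100% in the 24 h libraries, a difference of -34.2 points (adjusted p = 0.00508). These 3 CpGs had a median of 14 to 17 reads in a library, fewer than at the other named CpGs. The 0% at L1 was 0 of 9 reads in replicate 1 of the 48 h libraries harvested at 48 h. The 0% at L2 was 0 of 4 reads in the shallowest library.

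L3, on scaffold GL340966 at 165432, had 0%, 19.3% and 41.7% in the 48 h libraries and 27.8%, 58.0% and 83.1% in the 24 h libraries, a difference of -37.4 points (adjusted p = 0.000121). Its 0% was 0 of 3 reads in the shallowest library. L4, on chromosome 3 at 25504870, had 20.4%, 34.8% and 44.2% in the 48 h libraries and 46.8%, 69.2% and 84.6% in the 24 h libraries. At L4 the exposures did not overlap, and the difference was -37.3 points (log odds -1.57, SE 0.249, adjusted p = 1.07e-05) and of like size at the harvests of 0, 24 and 48 h, at -40.4, -39.3 and -32.2 points. The other 3 CpGs without overlap, named for that after their values were seen, were at 4080863 and 12602475 of chromosome 1 (33.9 and 33.1 points) and at 18694 of scaffold GL341005 (-21.1 points).

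**Figure D3:**
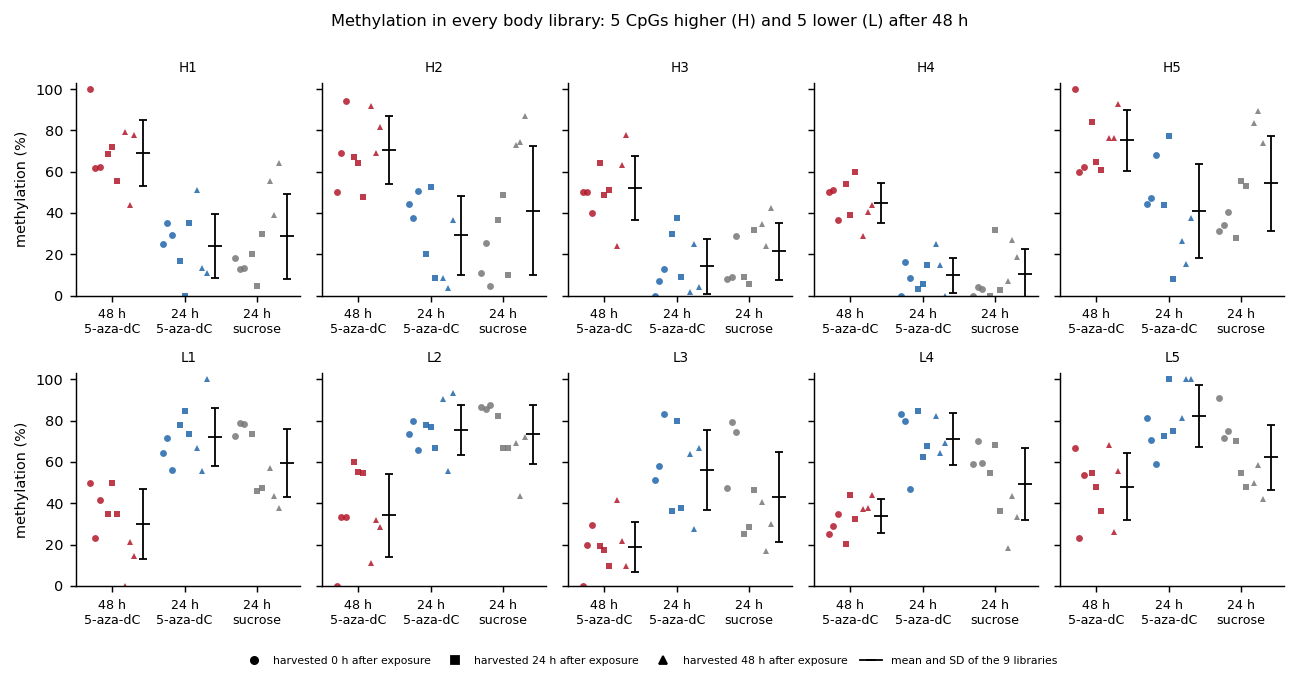
Methylation in percent (y axis) at the 5 CpGs with the largest rise (H1 to H5) and the 5 with the largest fall (L1 to L5) after 48 h, in every body library of 48 h 5-aza-dC, 24 h 5-aza-dC and sucrose. Point shapes give the harvest time and bars the mean and SD of 9 libraries. Sucrose libraries often lie between the exposures. From the 0 h to the 48 h harvest, their mean shifts in the direction of the exposure difference at each of these CpGs.

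Some of the CpGs that changed lay together. The 126 fell into 80 stretches with gaps of at most 200 bases, of which 22 held at least 2 of them, 68 in all, and the other 58 CpGs stood alone. In each of the 22 the CpGs moved in 1 direction. Of the 96 CpGs with another tested CpG within 200 bases, at a median distance of 9 bases, 89 had a nearest neighbour that differed with the same sign, 54 had one that also passed the threshold, and the neighbour's median difference in that direction was 19.2 points. Of the 6425 tested CpGs with such a neighbour, 61.4% had a nearest neighbour of the same sign and 1.68% one that passed the threshold. CpGs this close can lie on the same reads, so these are not independent measurements. A CpG with a level of 0.5 or above lay within 200 bases of 64 of the 126, and of 11.1% of all CpGs tested.

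Sucrose bodies were set beside the exposures at these CpGs as a description. At the 87 CpGs that rose, the median level was 38.9% after 48 h, 16.3% after 24 h and 24.7% in sucrose bodies. The sucrose mean lay between the other means at 70 of them, and it was nearer to the 24 h mean at 59. At the 39 that fell, the median over the 37 with sucrose reads was 27.1% after 48 h, 55.8% after 24 h and 42.9% in sucrose bodies, and the sucrose mean lay between at 31 and nearer to the 48 h mean at 25. Among all tested CpGs with sucrose reads, the sucrose mean lay between at 29%. The 126 were chosen for a wide gap between the exposures, so the mean of any other libraries can fall within it more often.

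The same CpGs also shifted with harvest time in sucrose bodies, whose libraries took no part in choosing them. Between the harvests at 48 and at 0 h, the sucrose level differed with the sign of the exposure difference at 72 of the 87 CpGs that rose and at 29 of the 37 that fell, against 49.7% of the 22201 CpGs tested with sucrose reads. The median shift was 11.3 points at the first set and -14.8 points at the second, beside -0.0421 points over all. Without the 3 sucrose libraries numbered replicate 1, for the doubt over their titles, an alternative added after the data were seen, the sign was shared at 67 of the 87 and 30 of the 37, against 50.3% of all. The medians were then 10.9, -13.1 and 0.166 points in the same order. H2 had 13.7% ± 10.8 at the 0 h harvest of sucrose bodies, 31.8% ± 20.0 at 24 h and 78.0% ± 7.80 at 48 h (SD, n = 3 each). L1 had 76.7% ± 3.49, 55.6% ± 15.4 and 46.0% ± 10.1 at the same harvests. A comparison at equal total time since feeding began was possible with 12 libraries, those of 48 h exposure harvested at 0 and 24 h against those of 24 h exposure harvested at 24 and 48 h, which makes totals of 48 and 72 h. In this comparison the time since exposure ended differed by 24 h, so a longer exposure and a shorter time after it cannot be told apart. The comparison called 95 CpGs, 60 higher and 35 lower, 83 of them among the 126. All 126 kept their sign, with medians of 23.3 points at those that rose and -28.3 points at those that fell, though these libraries are a part of the 18. Of the 10 CpGs named above, L2 did not pass in it (adjusted p = 0.0805).

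Heads, whose libraries were not used in choosing the CpGs, showed differences of the same sign at most of them. With 8 head libraries for 48 h and 7 for 24 h, 120 of the 126 differed with the same sign, against 50.6% of all CpGs tested. The median difference in heads was 19.8 points at the 87 that rose in bodies and -21.8 points at the 39 that fell. In the quasi-binomial model fitted to heads alone, 170 of 23690 CpGs passed the threshold (0.718%), and 70 of the 126 were among them with the same sign. An unadjusted p under 0.05 in heads and the same sign were found at 70 of the 87 that rose and 36 of the 39 that fell, against 4.2% of all CpGs tested. The labels do not say whether a head pool and a body pool came from the same females. At L4 the heads had 27.9% ± 12.1 after 48 h (SD, n = 8) and 73.4% ± 18.9 after 24 h (n = 7), a difference of -48.1 points averaged over harvest times (adjusted p = 3.60e-08 in the model across all CpGs). At H4 they had 47.1% ± 17.7 and 16.1% ± 16.5 in the same order, a difference of 34.8 points (adjusted p = 6.99e-05 in that model). No CpG had a difference between the exposures that itself differed between heads and bodies at an adjusted p of 0.05 (quasi-binomial model, 0%, 1849 of 23690 at an unadjusted p under 0.05), which does not show that the tissues respond alike.

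**Figure D4:**
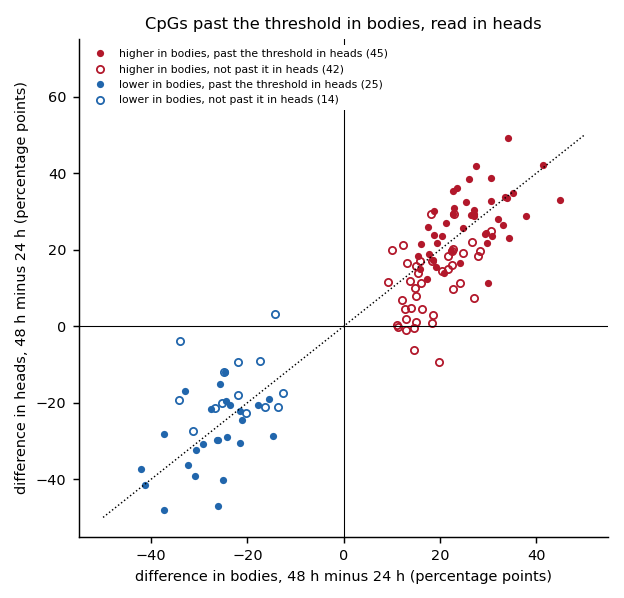
Difference between exposures in heads (y axis) against that in bodies (x axis), 48 h minus 24 h in percentage points, for the 126 CpGs past the threshold in bodies. Filled points also passed the threshold in heads and the dotted line marks equal differences; 120 of the 126 have the same sign in both tissues.

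Methylated CpGs of Nasonia often stand close together, and 352 clusters of at least 3 CpGs with a level of 0.5 or above, at gaps of at most 200 bases, held 1665 of them. A cluster had a median of 4 CpGs, 85 bases and 136.5 reads in a library. The mean level over the clusters was 83.2% ± 0.820 after 48 h and 83.2% ± 0.999 after 24 h (SD, n = 9 each), and 299 of the 352 (84.9%) differed by under 5 points. Of the 352, 11 passed an adjusted p of 0.05 in the quasi-binomial model of their summed reads (3.12%), 6 of which rose (1.70%) and 5 fell (1.42%). At an unadjusted p under 0.05 there were 48. All 11 differed with the same sign at all 3 harvest times, which 30.7% of the clusters did, though this comes from the libraries that chose them. They also did in heads, where 63.9% of the clusters had the sign they had in bodies. In heads 6 of the 11 passed the threshold, beside 12 of all 352 clusters (3.41%). The 6 were KH1, KH2, KH4, KL1, KL2 and KL4 as numbered in the next sentences.

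The largest change was a fall in the cluster KL1, which is the group of L1, L2 and L5 on chromosome 3, from 11868593 to 11868630. Its summed reads gave levels of 26.5%, 42.2% and 50.8% (lowest, median, highest) in the 48 h libraries and 60.0%, 73.8% and 97.5% in the 24 h libraries, with no overlap. The difference was -36.5 points (log odds -1.65, SE 0.231, adjusted p = 1.72e-05), and in heads it was -31.7 points (adjusted p = 0.00767 in the model across clusters). KL1 had a median of 46 reads in the 48 h libraries and 42 in the 24 h libraries. In sucrose bodies it had 80.7% ± 2.71 at the 0 h harvest, 61.8% ± 11.5 at 24 h and 51.9% ± 5.85 at 48 h (SD, n = 3 each).

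The cluster with the largest rise, KH1, spans 5 CpGs on chromosome 1 from 12602689 to 12602739, all 5 of which also passed the threshold singly. Levels were 79.5%, 81.9% and 90.2% in the 48 h libraries and 43.8%, 63.0% and 78.0% in the 24 h libraries. As in KL1, and in no other cluster (0.568% of those tested), the exposures did not overlap, and the 24 h libraries were the more spread, with an SD of 13.0 against 3.90 in the 48 h libraries. The difference was 23.7 points (log odds 1.24, SE 0.20, adjusted p = 0.000125) and grew along the harvests of 0, 24 and 48 h, at 12.2, 24.9 and 34.1 points, though no difference between harvest times was called for any cluster. In heads KH1 differed by 17.1 points (adjusted p = 0.00291 in the model across clusters). Another 2 CpGs that rose lay before it, at 12602472 and 12602475.

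The other clusters that fell had differences of -9.85 to -19.4 points. KL2, with 6 CpGs on scaffold GL340882 from 2072590 to 2072709, had 54.9% ± 13.1 after 48 h and 74.3% ± 6.53 after 24 h (SD, n = 9 each). Its gap was widest at the 0 h harvest, where the 48 h libraries were lowest, at -35.1 points, and was -8.10 and -14.9 points at the harvests of 24 and 48 h. KL4, with 6 CpGs on scaffold GL340974 from 923928 to 923995, had 64.7% ± 5.59 after 48 h and 79.2% ± 4.76 after 24 h, and its gap was even along harvest time, at -12.7, -16.6 and -14.1 points. KL3, 3 CpGs on scaffold GL341077 from 40734 to 40860, had 48.7% ± 7.87 and 64.8% ± 11.4, with the 48 h libraries first. KL5, 3 CpGs on chromosome 3 from 8268955 to 8269024, had 73.1% ± 12.2 and 82.9% ± 7.38 in that order.

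The other clusters that rose differed by 6.50 to 12.7 points, and all overlapped between exposures. KH2 on chromosome 1, from 29742112 to 29742179, had 80.9% ± 6.13 after 48 h and 68.2% ± 7.97 after 24 h (SD, n = 9 each), although none of its 4 CpGs passed the threshold singly. KH3 on chromosome 2, from 736108 to 736241, had 92.5% ± 3.62 after 48 h and 82.1% ± 7.68 after 24 h, with a gap of only 0.614 points at the 24 h harvest. KH4 on chromosome 3, from 20847226 to 20847412, had 72.1% ± 7.89 and 61.8% ± 5.37, and KH5 on chromosome 1, from 5251798 to 5251964, had 86.8% ± 3.84 and 78.8% ± 6.05, both with the 48 h libraries first. KH6, 11 CpGs on scaffold GL340882 from 1953379 to 1953619, had 83.3% ± 4.73 and 76.8% ± 4.68 in the same order and an adjusted p of 0.0459.

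Of the 11 clusters, limma kept KH1, KL1, KL2 and KL4. Those 4 held their call when any 1 library was left out, as did KL3. Leaving out replicate 1 of the 24 h libraries harvested at 48 h removed the calls of KH2, KH3, KH4, KH5, KH6 and KL5 and left 5 clusters called in all. KH6 lost its call without any of 11 single libraries. The subset of 9 libraries, without those above 2% residual level and without the harvest at 48 h, was tested as well. None of the 11 passed in it, 1 cluster did that had not passed before (chromosome 3, 5611099 to 5611371, adjusted p = 0.0378 in the quasi-binomial model), and 33 had an unadjusted p under 0.05.

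**Figure D5:**
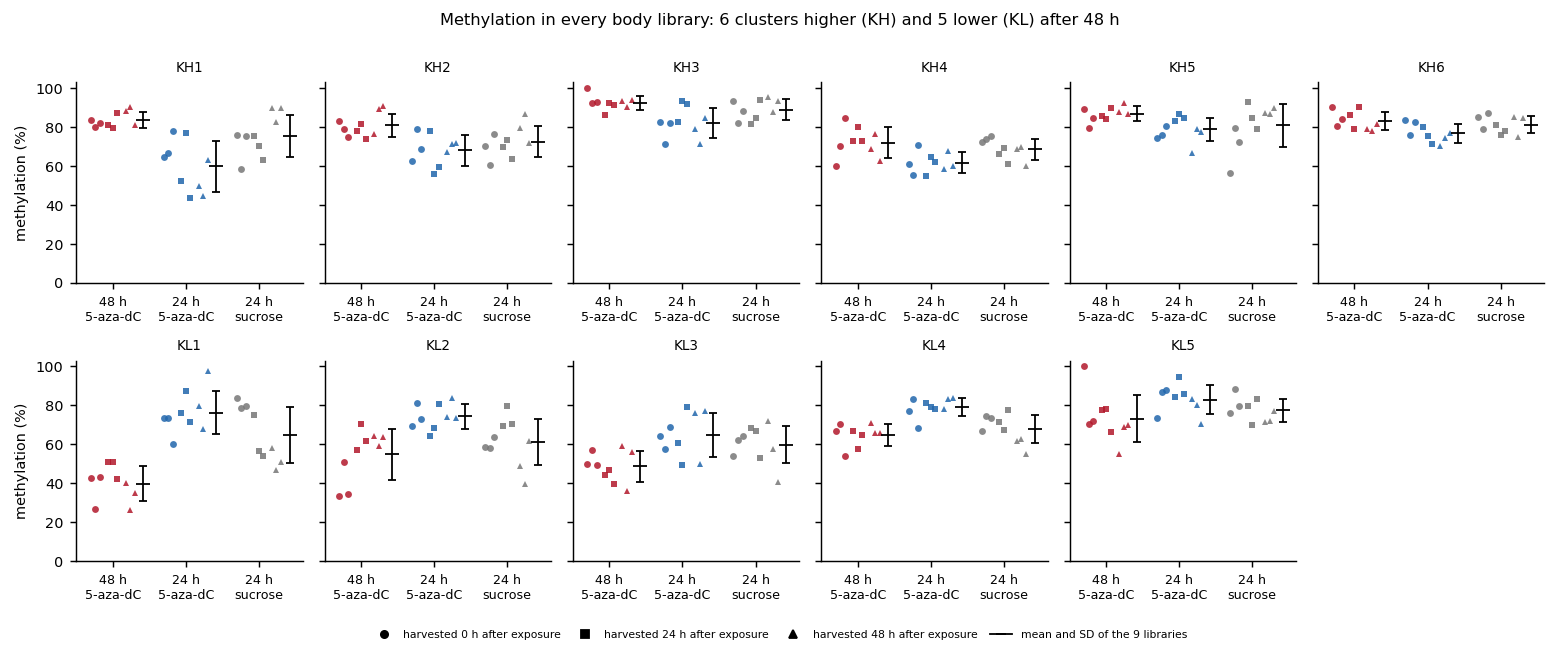
Methylation in percent (y axis) from summed reads in the 6 clusters higher (KH1 to KH6) and the 5 lower (KL1 to KL5) after 48 h, in every body library of 48 h 5-aza-dC, 24 h 5-aza-dC and sucrose. Point shapes give the harvest time and bars the mean and SD of 9 libraries; only KH1 and KL1 have no overlap between the 5-aza-dC exposures.

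Whether the difference between the exposures depends on the time since exposure was asked with an interaction of exposure and harvest time. It was called at 2 of 23690 CpGs (0.00844%, 1775 at an unadjusted p under 0.05) and at none of the 352 clusters (0%, 27 at an unadjusted p under 0.05), while limma called none of either (1785 CpGs and 24 clusters at an unadjusted p under 0.05). Both CpGs are named for being few, after their values were seen. At 247 of scaffold ChrUn_1064, the 3 libraries of 48 h exposure had 0%, 4.65% and 1.79% at the 0 h harvest, against 16.7%, 20.0% and 40.4% in those of 24 h exposure. At the 24 h harvest the order was the opposite, with 48.0%, 11.6% and 52.6% after 48 h and 7.69%, 3.33% and 5.08% after 24 h. At the 48 h harvest the 48 h libraries had 26.3%, 46.7% and 45.8%, and the 24 h libraries 19.0%, 6.90% and 22.7% (interaction adjusted p = 0.0160). At 42803 of scaffold GL341022, the means after 48 h exposure were 0.667%, 18.0% and 19.2% at the harvests of 0, 24 and 48 h, and those after 24 h exposure were 32.7%, 0.694% and 1.63% (interaction adjusted p = 0.0136, quasi-binomial model). limma gave adjusted p-values of 0.428 for the first and 0.273 for the second. The calls held in 15 and 18 of the 21 alternatives, in that order, and leaving out replicate 3 of the 48 h libraries harvested at 0 h removed both.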

How the data were processed

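Per the labels, DNA of pooled bodies was bisulphite converted and sequenced as paired reads. The authors deposited 1 table with counts of methylated and of all reads per CpG and library. The submitters' processing notes name cutadapt 1.12, Bismark 0.16, Bowtie2, SAMtools, methylKit 0.99.3 and R 3.3.1, without saying what each did. The genome build, filters and removal of duplicate reads are not given in the sources used here. Every deposited value for the shared CpGs rests on at least 3 reads.

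Levels are methylated over all reads, with no filter beyond the presence of reads in all 18 libraries, and class means weight CpGs equally. Class differences were tested by exact permutation within harvest times (8000 arrangements, smallest two-sided p 0.00025; within 1 harvest time 3 against 3 libraries cannot go below 0.1, so values there carry no test). CpGs at or above 0.1 and clusters were fitted with a quasi-binomial logistic model (Python 3.11.15, numpy 2.4.6) with Pearson dispersions moderated by limma 3.58.1 in R 4.3.3 and held at 1 or above, and adjusted over all features tested. The fit was also run on simulated counts with an assumed overdispersion, which does not show how well it holds its error rate on these reads. Named CpGs are the 5 higher and 5 lower with the largest differences among those past the threshold with 1 sign at all 3 harvest times and a median of at least 10 reads, and named clusters up to 10 by the same rule. Read counts of 2 replicates of a group were identical at no more than 3.88% of CpGs, so all libraries were counted. Bisulphite read counts may include PCR copies, since removal of duplicates is not given, so precision covers sampled reads only. Alternatives were limma on arcsine-square-root values, other coverage and level filters, background removal, centring, no harvest block, other clusters and fewer libraries. The members and lists were chosen with earlier results of these data known.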

Additional observations from a re-analysis of the deposited data

Results flagged for a closer look

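Of the values examined, 4 came from a single library far from the other 8 of its exposure, out of 54 groups of 9 libraries examined, and chance alone sets a library apart in about 1 of 20 groups. Replicate 2 of the 24 h libraries harvested at 0 h was at 2.46% for CpGs with a level under 0.02 and at 5.57% for those of 0.02 to 0.1, above all other 24 h libraries. Replicate 1 of the 48 h libraries harvested at 0 h, the shallowest library, was at 35.8% for CpGs of 0.2 to 0.5. It was at 26.8% in that class when the classes were set by the sucrose bodies. Replicate 3 of the 24 h libraries harvested at 0 h was lowest in the cluster KL4, at 68.4%, on 548 reads.

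At 2 CpGs the difference between the exposures depended on harvest time, at 247 of scaffold ChrUn_1064 (interaction adjusted p = 0.0160, quasi-binomial model across all CpGs) and at 42803 of scaffold GL341022 (adjusted p = 0.0136 in the same model). In the 2 lowest classes of level, the libraries of 48 h exposure all lay below those of 24 h exposure at the 0 h harvest and all above them at the 48 h harvest. With classes set by the sucrose bodies, this held under 0.02. At 0.02 to 0.1 the exposures then overlapped at the 0 h harvest, at 2.39% to 2.91% after 48 h and 2.75% to 6.36% after 24 h. In the classes of the 18 libraries, the differences at these harvests were -0.934 and 2.57 points for CpGs under 0.02, and -1.70 and 4.48 points for CpGs of 0.02 to 0.1. Those at the 0 h harvest rest mainly on replicate 2 of the 24 h libraries, at 2.46% and 5.57%. The reversal between the harvests was not tested. The residual level over CpGs under 0.02 in sucrose bodies moved with it, at 0.347% and 4.40% after 48 h exposure and 1.62% and 0.852% after 24 h exposure for the same harvests, and its part was not tested.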

How the results depend on the processing

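No paired analysis was possible because the labels give no replicate numbers shared between the exposures. Class differences changed sign in these cases, none of which passed the exact permutation test. With the sucrose-defined residual level removed, the classes of 0.5 to 0.8 and of 0.8 or above gave -0.00841 and -0.0174 points. At equal total time since feeding began they gave -0.00794 and -0.341 points. Without the 6 libraries whose titles give another harvest time, the classes of 0.2 to 0.5, 0.5 to 0.8 and 0.8 or above gave -0.123, -0.112 and -0.394 points. Without the harvest at 48 h and the 6 libraries with residual levels above 2%, the 2 lowest classes gave -0.0586 and -0.203 points. Leaving out 1 library at a time, the differences spanned 0.821 to 1.86 points under 0.02, 1.24 to 2.76 at 0.02 to 0.1 and 1.90 to 3.29 at 0.1 to 0.2.

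The 126 CpGs became 18 with limma, 46 with limma at 10 or more reads and 0 with unmoderated dispersions. They became 3 in the 9 libraries left without high residual levels and without the harvest at 48 h. There were 14 among 601782 CpGs at a level filter of 0.02, and 86 to 149 without 1 library. Without the 6 libraries with other titles there were 90, 43 higher and 47 lower. Clusters called numbered 4 with limma, 6 without the libraries with other titles and 5 with unmoderated dispersions. Without high residual levels and the harvest at 48 h there was 1. They numbered 7 at gaps of at most 100 bases, 4 with at least 5 CpGs, 2 of 9 with at least 100 reads in every library, and 5 to 16 without 1 library. KH2 and KL5 also lost their calls without replicate 2 of the 24 h libraries harvested at 24 h, KH3 and KH4 without replicate 3 of the 48 h libraries harvested at 0 h, and KL5 without replicate 1 of the 48 h libraries harvested at 48 h or replicate 3 of the 24 h libraries harvested at 24 h. Interaction CpGs numbered 0 with limma, 6 without the libraries with other titles and 0 to 3 without 1 library. With limma in both tissues, 18 of the 18 CpGs called in bodies had the same sign in heads and 7 were called there. The cause of these changes was not tested. At equal total time since feeding began, KH2, KH3 and KL5 were not called (adjusted p = 0.267, 0.166 and 0.388, quasi-binomial model). No alternative run changed the sign of the 10 named CpGs or 11 named clusters. The lowest mean depth, 6.14 reads per CpG, leaves single levels in that library coarse.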
